A study of Mus musculus with 16 samples.

Results

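Polycomb repressive complex 1 (PRC1) is the chromatin complex whose RING subunits attach ubiquitin to histone H2A, and its 9 subunit genes Ring1, Rnf2, Bmi1, Pcgf1, Pcgf5, Pcgf6, Cbx2, Cbx7 and Cbx8 were followed here by their symbols in the deposited gene table. All 9 were found among the 49584 listed genes, and all 9 passed the low count filter that left 15240 genes for testing. Every PRC1 holds RING1 or RNF2 together with 1 PCGF protein. In canonical complexes, which carry BMI1 (PCGF4) or its relative PCGF2, a CBX protein reads the trimethyl mark that PRC2, the complex of EZH2, places on lysine 27 of histone H3. Variant complexes built on PCGF1, PCGF5 or PCGF6 carry RYBP or YAF2 in place of the CBX protein and reach chromatin by other routes. In germinal centre B cells, CBX8 is known as a partner of BCOR, BCL6 and EZH2 in gene silencing.

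Germinal centre B cells (B220+ FAS+ CD38-) had been sorted from spleens of C57BL/6J mice 3 months old, 8 days after they received sheep red blood cells, and their total RNA was sequenced. The 4 groups were centrocytes from Ezh2(Y641F)fl/wt;Cγ1-cre+/- mice ("mutant"), centrocytes from Cγ1-cre+/- mice ("control"), mutant centroblasts and control centroblasts, with 4 libraries each. Centrocytes, the light zone cells that are selected on antigen, were gated CXCR4- CD86+, and centroblasts, the dividing dark zone cells, CXCR4+ CD86-. All mice carried 1 copy of Cγ1-cre, which drives Cre from the immunoglobulin gamma 1 constant region locus and so acts in activated B cells and not before, and all were labelled as 1 litter. The mutant mice had in addition 1 conditional Ezh2 allele that encodes the lymphoma-associated Y641F enzyme. The gene counts do not separate the mutant from the wild-type Ezh2 transcript, so they check neither the allele nor the share of cells that recombined it.

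The libraries held 35230563 to 44466911 counted reads each, and single members had 266 to 4625 reads per library, a counting error of 6.13% to 1.47%. The gated genes followed the sort: Cxcr4 was 2.5-fold lower and Cd86 1.9-fold higher in mutant centrocytes than in mutant centroblasts, and 2.25-fold lower and 1.93-fold higher in control centrocytes than in control centroblasts. All 11 germinal centre B cell markers were expressed in every group, with summed levels of 6890 to 9020 CPM (read counts scaled to the size of the library, per 10 to the power of 6 reads) over all libraries, and the 9 T cell markers summed to 1.12 to 4.91 CPM. By their Y-linked transcripts, the mice behind libraries 1 and 2 of every group were male and those behind libraries 3 and 4 female. Mutant centrocyte libraries 3 and 4 stood apart by macrophage markers, whose 10 genes summed to 67, 42.7, 246 and 240 CPM in mutant centrocytes, against 60 to 97.7 CPM in control centrocytes, and to 26.1 to 71.5 CPM in mutant against 18.4 to 54.1 CPM in control centroblasts. Erythroid markers (5 genes) summed to 19.4 to 39.1 CPM in mutant against 11.5 to 18.6 CPM in control centrocytes, with no overlap, and to 12.5 to 19.5 CPM in mutant against 7.18 to 16 CPM in control centroblasts. All 4 tested had a positive difference in centrocytes and 1, the globin gene Hbb-bt, was called (0.98, adjusted p 0.00465), and their part in the genotype differences was not tested. The balance of AT-rich against GC-rich transcripts also varied: the median log2 level of genes under 45% GC minus that of genes over 55% GC, relative to the mean of all libraries, was -0.40 to 0.12 in mutant centrocytes, -0.14 to 0.32 in control centrocytes and -0.34 to 0.18 in mutant centroblasts, but 1.00, 0.35, -0.09 and -0.53 in control centroblasts 1 to 4. Each comparison was therefore also fitted with an offset per library for GC content and transcript length. In bulk RNA of this kind, fewer cells of a type and less RNA per cell cannot be told apart.

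On the per-kilobase scale (CPM divided by the exon length of the gene), which allows levels of different genes to be compared, Cbx7 stood first in all 4 groups, with mean levels of 14 to 15.3, and Pcgf5 last, with 1.04 to 1.66. CBX7 is a CBX protein with strong binding to the PRC2 mark and a role in B cell lymphoma. In mutant centrocytes the order of mean levels per kilobase was Cbx7 14 ± 2.07, Rnf2 11.3 ± 1.16, Ring1 10.6 ± 1.20, Pcgf1 6.87 ± 1.17, Cbx8 6.31 ± 0.644, Cbx2 6.06 ± 0.629, Bmi1 5.91 ± 0.500, Pcgf6 4.70 ± 0.258 and Pcgf5 1.04 ± 0.219 (SD, n = 4). The libraries of neighbours in that order overlapped except for Ring1 and Pcgf1, Bmi1 and Pcgf6, and Pcgf6 and Pcgf5. In control centrocytes the order was Cbx7 15.3 ± 1.58, Rnf2 11.6 ± 1.95, Ring1 9.59 ± 0.678, Cbx2 5.98 ± 0.690, Pcgf1 5.45 ± 0.629, Pcgf6 5.28 ± 0.550, Bmi1 4.26 ± 1.16, Cbx8 3.79 ± 0.467 and Pcgf5 1.5 ± 0.151 (SD, n = 4). There the break between neighbours fell after Ring1 and before Pcgf5. Cbx8 had rank 5 in mutant and rank 8 in control centrocytes on this scale, but rank 8 in both per kilobase of the longest transcript (6.47 in mutant and 3.89 in control centrocytes).

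In mutant centroblasts Cbx7 had 14.1 ± 1.46, Rnf2 10.4 ± 1.73, Ring1 8.42 ± 0.530, Pcgf1 7.05 ± 1.07, Cbx2 5.82 ± 0.902, Pcgf6 5.08 ± 0.580, Cbx8 4.68 ± 0.266, Bmi1 4.14 ± 0.894 and Pcgf5 1.07 ± 0.136 CPM per kilobase. Only the first and the last pair of neighbours in that order were apart in every library. In control centroblasts Cbx7 had 14 ± 2.19, Rnf2 12.5 ± 3.55, Ring1 7.54 ± 1.69, Cbx2 7.02 ± 1.90, Pcgf1 5.99 ± 0.230, Pcgf6 5.55 ± 1.25, Cbx8 3.09 ± 0.571, Bmi1 3.05 ± 1.35 and Pcgf5 1.66 ± 0.194 CPM per kilobase. The breaks there lay between Rnf2 and Ring1 and between Pcgf6 and Cbx8. The order depends on the length used: per kilobase of the longest transcript, Rnf2 at 16.2 led Cbx7 at 14.9 in control centroblasts, and Cbx8 at 3.17 came after Pcgf5 at 3.25, since the exon length of Pcgf5 (12629 bases) is far above that of its longest transcript (6443 bases). Summed over the 9 members, the level per kilobase was 66.8 ± 3.68 in mutant and 62.7 ± 3.47 in control centrocytes, and 60.8 ± 2.29 in mutant and 60.4 ± 1.23 in control centroblasts.

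**Figure D1:**
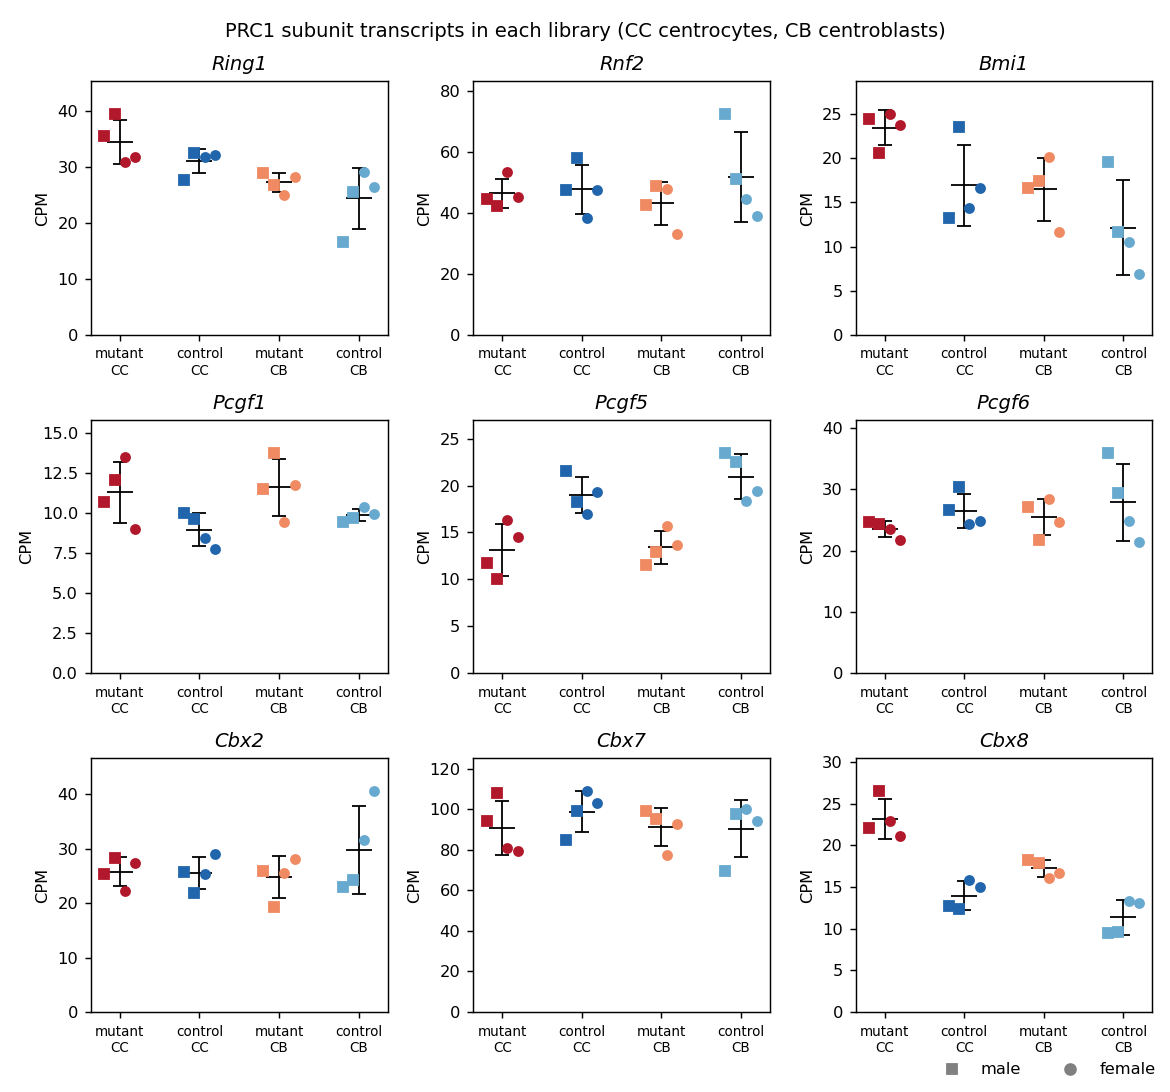
CPM of each PRC1 subunit gene (y axis, from 0) in mutant centrocytes, control centrocytes, mutant centroblasts and control centroblasts; each point is 1 library (squares male, circles female), with the group mean and SD in black. Cbx8 lies higher in mutant than in control libraries and Pcgf5 lower, with no overlap in either cell type. Control centroblast library 1 is the lowest of its group in Ring1 (16.6 CPM) and the highest in Rnf2 (72.4 CPM).

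The first comparison asks what the mutant enzyme changes in each cell type. In mutant centrocytes 1 of 9 members rose and 1 fell, beside 7.37% of all tested genes called higher and 9.15% called lower (16.5% in all). In mutant centroblasts 1 of 9 rose and 1 fell, beside 4.06% of genes called higher and 6.40% called lower (10.5% in all). The gene that rose was Cbx8 and the gene that fell was Pcgf5 in both cell types, and the 7 other members did not pass the test (edgeR quasi-likelihood test, Benjamini-Hochberg adjusted p under 0.05). The median log2 fold change of the 9 members was 0.0209 in centrocytes, against 0.00144 over all genes, and 0.011 in centroblasts, against 0.0083 over all genes. Among all genes 1123 were called higher and 1394 lower in centrocytes and 619 higher and 976 lower in centroblasts. With the GC and length offset the split turned, to 2740 higher and 1586 lower in centrocytes and 1564 higher and 1183 lower in centroblasts. The count of higher genes also changed when 1 library was left out. In centrocytes it was 619 to 733 without control library 2, 3 or 4 or mutant library 2, and 761, 830 and 963 without mutant library 4, 3 and 1. In centroblasts it was 381 or 411 without control library 2 or mutant library 4, and 854 without control library 4. Leaving out a library also makes its group smaller, so a lower count does not by itself single out that library.

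Cbx8, the chromobox subunit at chr11:119036305-119040969 (mm10, minus strand, next to Cbx2 at chr11:119022962-119031270), had 22.1, 26.5, 22.9 and 21.1 CPM in mutant centrocytes 1 to 4, against 12.7, 12.3, 15.8 and 15.0 CPM in control centrocytes. Every mutant library lay above every control library, which held for 11.1% of all tested genes. The difference was 0.73 ± 0.136 on the log2 scale (SE), 1.66-fold, with an adjusted p of 0.00161. In centroblasts Cbx8 had 18.2, 17.9, 16.1 and 16.7 CPM in mutants, against 9.43, 9.63, 13.3 and 13.1 CPM in controls. Again the libraries did not overlap, as for 6.36% of all tested genes, and the control males were the lowest. The difference was 0.60 ± 0.137 (log2, SE), 1.52-fold, with an adjusted p of 0.00786. Cbx8 kept its call and its size with the GC and length offset (0.80, adjusted p 4.23e-05, in centrocytes and 0.60, adjusted p 0.000733, in centroblasts) and without mutant centrocyte libraries 3 and 4 (0.81, adjusted p 0.00892, in centrocytes). Within the sexes the log2 difference was 0.95 in males (adjusted p 0.00771) and 0.50 in females (0.0595) in centrocytes, and 0.91 in males (0.00598) and 0.33 in females (0.34) in centroblasts, so the call did not hold among females alone; whether the sexes differ was not tested.

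The promoter of Cbx8 is shown because Cbx8 is the member that rose in both cell types, and those of Pcgf5, which fell, and Bmi1, whose call depended on the scaling, stand beside it for contrast. Each is 250 bases before to 50 after a transcript start (RefSeq, GRCm38.p6), read 5′ to 3′ on the gene's strand, at chr11:119040864-119041163 (minus) for Cbx8, chr19:36348079-36348378 (plus, the first of 3 listed starts) for Pcgf5 and chr2:18676768-18677067 (plus) for Bmi1. Capitals mark the cyclic AMP response element (CRE) TGACGTCA and the E-box CACGTG, each its own reverse complement and thus the same on both strands, which do not overlap each other.
Cbx8: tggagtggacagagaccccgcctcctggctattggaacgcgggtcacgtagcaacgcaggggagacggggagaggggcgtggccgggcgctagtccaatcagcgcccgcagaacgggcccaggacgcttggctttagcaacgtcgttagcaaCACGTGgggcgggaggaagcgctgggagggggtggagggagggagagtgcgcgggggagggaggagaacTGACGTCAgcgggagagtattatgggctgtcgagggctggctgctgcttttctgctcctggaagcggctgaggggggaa
Pcgf5: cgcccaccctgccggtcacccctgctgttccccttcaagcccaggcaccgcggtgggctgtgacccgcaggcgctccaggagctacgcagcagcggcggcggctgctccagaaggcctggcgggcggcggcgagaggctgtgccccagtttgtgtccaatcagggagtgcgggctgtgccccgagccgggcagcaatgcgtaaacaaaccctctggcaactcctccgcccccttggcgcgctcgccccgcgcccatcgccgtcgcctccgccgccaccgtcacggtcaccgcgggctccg
Bmi1: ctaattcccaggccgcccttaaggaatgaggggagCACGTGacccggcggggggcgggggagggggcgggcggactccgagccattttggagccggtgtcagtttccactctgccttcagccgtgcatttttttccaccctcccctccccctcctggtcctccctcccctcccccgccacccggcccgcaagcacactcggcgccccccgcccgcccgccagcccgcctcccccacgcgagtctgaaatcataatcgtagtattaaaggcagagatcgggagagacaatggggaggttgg
The Cbx8 window holds the CRE, starting 29 bases before the start, and an E-box 98 bases before it. The Bmi1 window holds an E-box 215 bases before the start, and the Pcgf5 window holds neither string. Of all 32851 RefSeq windows of this length, 1.79% hold the CRE and 7.15% the E-box. The 2 motifs were picked after these sequences had been read. All 3 windows are rich in CpG, with 24 CpG and 66% GC for Cbx8, 34 CpG and 73% GC for Pcgf5 and 23 CpG and 66.3% GC for Bmi1, against medians of 7 CpG and 52.7% GC over all windows. A promoter was found for 7 of the 9 members.

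Pcgf5 encodes the PCGF protein of the variant complexes that contain AUTS2, and lies at chr19:36348309-36460970 (plus strand). It had 11.8, 10.1, 16.3 and 14.5 CPM in mutant centrocytes, against 21.5, 18.2, 17.0 and 19.3 CPM in control centrocytes. The highest mutant library, a female, was just under the lowest control library, and no libraries overlapped, as for 12.4% of all genes in that direction. Pcgf5 fell by 0.53 on the log2 scale (SE 0.15), 1.44-fold, with an adjusted p of 0.0232. In centroblasts it had 11.5, 12.9, 15.7 and 13.7 CPM in mutants, against 23.5, 22.5, 18.4 and 19.4 CPM in controls. These libraries did not overlap either (8.01% of all genes), and Pcgf5 fell by 0.64 (SE 0.15), 1.56-fold, with an adjusted p of 0.00962.

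The call of Pcgf5 was lost with the offset in both cell types and on leaving out single libraries in centrocytes, while in centroblasts it held in 16 of 16 fits with 1 library left out (adjusted p 0.0064 to 0.0413). Its transcripts are AT-rich (40.42% GC), and with the GC and length offset the log2 difference was -0.27 (adjusted p 0.272) in centrocytes and -0.45 (0.0916) in centroblasts. In centrocytes the adjusted p was also above the threshold without mutant library 1 (0.062), mutant library 2 (0.0779), control library 1 (0.0571) or control library 4 (0.0561), and without mutant libraries 3 and 4 the difference was -0.79 (0.0101). Males alone gave -0.87 (0.0154) in centrocytes and -0.92 (0.00634) in centroblasts, and females alone -0.25 (0.358) and -0.35 (0.33). An antisense gene shares 60 exonic bases with Pcgf5, 0.475% of its length, and reads there cannot be told apart without strand.

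Bmi1, the PCGF subunit of canonical complexes and a classical repressor of Cdkn2a, was at chr2:18677018-18686629 (plus strand). It had 24.5, 20.6, 25.0 and 23.8 CPM in mutant centrocytes, against 13.2, 23.5, 14.4 and 16.6 CPM in control centrocytes. All mutant libraries but 1 were above the highest control library, and the log2 difference was 0.47 ± 0.251 (SE, adjusted p 0.212). In centroblasts it had 16.6, 17.4, 20.2 and 11.7 CPM in mutants, against 19.6, 11.6, 10.5 and 6.86 CPM in controls, a spread of the controls that put library 1 near the top of all 8 values. The log2 difference there was 0.44 ± 0.253 (SE, adjusted p 0.325). The transcripts of Bmi1 have 40.23% GC, and with the GC and length offset Bmi1 was called higher in mutants, by 0.73 (adjusted p 0.000235) in centrocytes and 0.67 (0.0007) in centroblasts. Leaving out control centroblast library 1 alone gave 0.77 (0.0362) in centroblasts.

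The other PCGF subunits did not pass the test. Pcgf1, which forms the complexes with KDM2B and BCOR, averaged 11.3 ± 1.93 CPM in mutant and 8.98 ± 1.04 CPM in control centrocytes (SD, n = 4), a log2 difference of 0.34 ± 0.147 (adjusted p 0.127), and 11.6 ± 1.77 CPM in mutant and 9.88 ± 0.38 CPM in control centroblasts (0.23 ± 0.146, adjusted p 0.38). Pcgf6, the subunit of the complexes with MGA, L3MBTL2 and E2F6, averaged 23.6 ± 1.3 CPM in mutant and 26.5 ± 2.77 CPM in control centrocytes (-0.17 ± 0.14, adjusted p 0.44), and 25.5 ± 2.91 CPM in mutant and 27.9 ± 6.28 CPM in control centroblasts (-0.13 ± 0.14, adjusted p 0.648). The libraries of both genes overlapped between genotypes.

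Neither ubiquitin ligase gene passed the test between genotypes. Ring1 had 35.6, 39.5, 30.9 and 31.9 CPM in mutant centrocytes, against 27.8, 32.5, 31.9 and 32.2 CPM in control centrocytes, and the groups overlapped (log2 difference 0.15 ± 0.141, adjusted p 0.505). Its level was 29.0, 26.9, 25.1 and 28.3 CPM in mutant centroblasts, against 16.6, 25.6, 29.2 and 26.5 CPM in control centroblasts, of which the first is the lowest (0.16 ± 0.142, adjusted p 0.564). Rnf2, the ligase that supplies most H2A ubiquitination in mouse embryonic stem cells, had 44.7, 42.4, 53.4 and 45.3 CPM in mutant centrocytes, against 47.4, 57.9, 38.2 and 47.4 CPM in control centrocytes (-0.04 ± 0.176, adjusted p 0.908). In centroblasts it had 42.7, 48.8, 47.7 and 33.2 CPM in mutants, against 72.4, 51.2, 44.5 and 38.9 CPM in controls (-0.26 ± 0.176, adjusted p 0.418). Control centroblast library 1, the library richest in AT-rich transcripts, held the highest Rnf2 (39.52% GC), Bmi1, Pcgf6 and Pcgf5 and the lowest Ring1 (56.86% GC), Cbx2, Cbx7 and Cbx8 of its group; the part of base composition in these values was not tested.

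The other chromobox members did not pass the test between genotypes. Cbx2, a CBX protein that compacts nucleosomes, averaged 25.8 ± 2.68 CPM in mutant and 25.4 ± 2.94 CPM in control centrocytes (SD, n = 4; log2 difference 0.02 ± 0.166, adjusted p 0.948), and 24.8 ± 3.84 CPM in mutant and 29.9 ± 8.09 CPM in control centroblasts (-0.27 ± 0.166, adjusted p 0.369). Cbx7 averaged 90.8 ± 13.5 CPM in mutant and 98.9 ± 10.2 CPM in control centrocytes (-0.12 ± 0.131, adjusted p 0.552), and 91.2 ± 9.49 CPM in mutant and 90.5 ± 14.2 CPM in control centroblasts (0.01 ± 0.131, adjusted p 0.973). Cbx7 shares 100 exonic bases (1.54%) with Apobec3 and Rnf2 158 bases (3.83%) with Trmt1l.

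**Figure D2:**
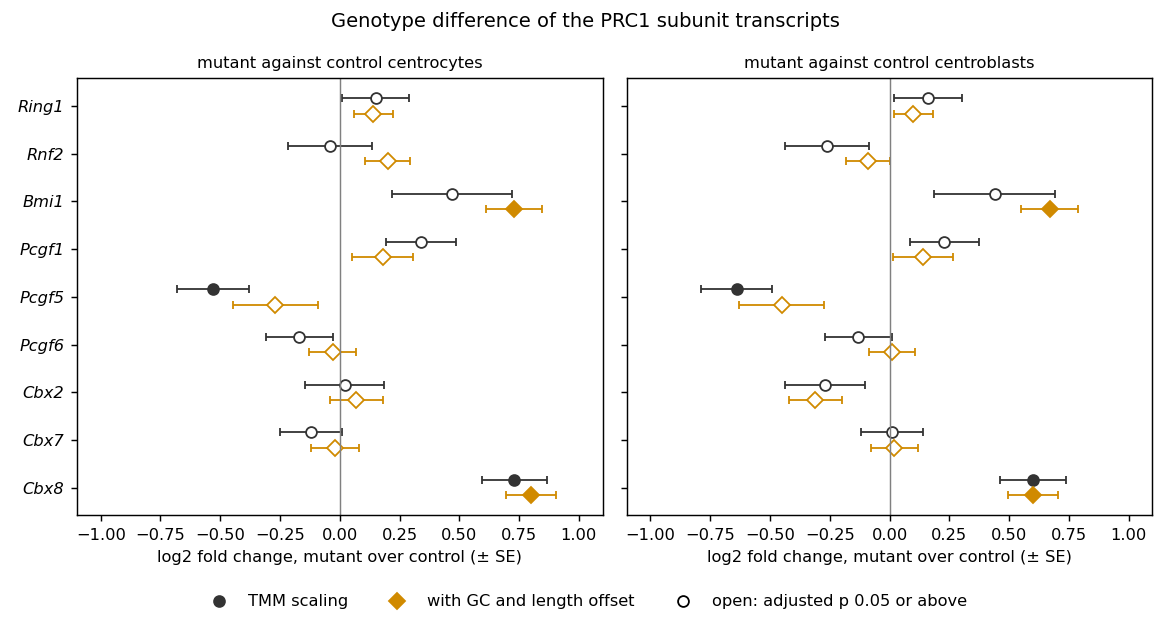
Log2 fold change of mutant over control (x axis, bars ± SE) for each member in centrocytes (left) and centroblasts (right), with TMM scaling (circles) and with the GC and length offset (diamonds); filled symbols have an adjusted p under 0.05. Cbx8 is filled under both scalings (0.73 and 0.80 in centrocytes), Pcgf5 only under TMM and Bmi1 only with the offset.

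The makeup of the chromobox and PCGF members followed here is described as shares of their summed levels. Other genes of these families were not in the sums. Cbx8 made up 24.0% ± 1.41 of the summed chromobox level per kilobase (Cbx2, Cbx7 and Cbx8) in mutant centrocytes and 15.1% ± 0.761 in control centrocytes (SD, n = 4), and 19.1% ± 1.03 in mutant and 12.8% ± 1.17 in control centroblasts. The share of Cbx7 was 52.9% ± 2.18 in mutant and 60.9% ± 2.85 in control centrocytes, and 57.2% ± 3.15 in mutant and 58.2% ± 4.86 in control centroblasts. Of the summed PCGF level per kilobase (Bmi1, Pcgf1, Pcgf5 and Pcgf6), Pcgf5 took 5.64% ± 1.09 in mutant and 9.21% ± 1.28 in control centrocytes. In centroblasts it took 6.16% ± 0.844 in mutants and 10.3% ± 0.936 in controls. Bmi1 took 32.0% ± 2.99 in mutant and 25.6% ± 4.44 in control centrocytes, and 23.8% ± 4.29 in mutant and 18.2% ± 5.10 in control centroblasts. Pcgf6 took 25.4% ± 1.77 in mutant and 32.0% ± 0.449 in control centrocytes, and 29.3% ± 3.62 in mutant and 33.9% ± 2.42 in control centroblasts. The CPM of Pcgf6 itself overlapped between genotypes in both cell types, and Pcgf6 did not pass the test. These shares restate the levels above and were not tested, and a share also moves with the other genes of its sum. The family sums overlapped between genotypes: the chromobox sum was 26.4 ± 3.02 CPM per kilobase in mutant and 25.0 ± 2.21 in control centrocytes, and 24.6 ± 1.75 in mutant and 24.1 ± 4.00 in control centroblasts.

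**Figure D3:**
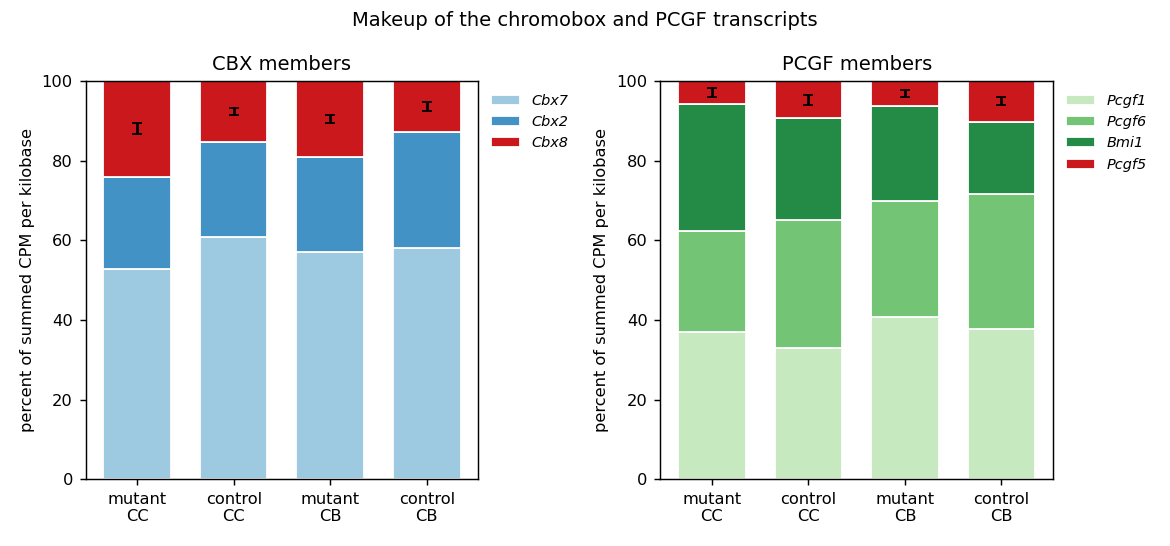
Mean percent of the summed CPM per kilobase of Cbx2, Cbx7 and Cbx8 (left) and of Bmi1, Pcgf1, Pcgf5 and Pcgf6 (right) taken by each gene. The groups are mutant centrocytes, control centrocytes, mutant centroblasts and control centroblasts (4 libraries each). The black bar in the red part is ± SD of the share of Cbx8 (left) or Pcgf5 (right). The Cbx8 part is 24.0% in mutant against 15.1% in control centrocytes, and the Pcgf5 part 5.64% against 9.21%.

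The second comparison sets centrocytes against centroblasts of the same genotype. In mutants 1 of 9 members was higher in centrocytes and none was called lower, beside 8.92% of genes called higher and 7.07% called lower. That member was Cbx8, at 0.43 ± 0.136 on the log2 scale (SE), 1.35-fold, with an adjusted p of 0.0387. In controls 0 of 9 members were called by edgeR and 0 by DESeq2, where 14.9% of genes were called higher and 12.9% lower (27.8% in all) by edgeR; 2 members, Ring1 and Cbx8, had an unadjusted p under 0.05. Among all genes 1360 were called higher and 1078 lower in mutants and 2270 higher and 1960 lower in controls, and with the GC and length offset 1607 higher and 2395 lower in mutants and 2272 higher and 3610 lower in controls. The median size of the members' log2 fold changes was 0.109 in mutants and 0.14 in controls, against 0.256 and 0.332 over all genes.

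The zone call of Cbx8 in mutants was the weakest of its calls. All 4 mutant centrocyte libraries (21.1 to 26.5 CPM) were above all 4 mutant centroblast libraries (16.1 to 18.2 CPM), as for 11.5% of all genes. Same-numbered mutant libraries deviated together, and with the number as a block the adjusted p was 0.0505, or 0.0154 with a block by genotype and number. The call was lost without mutant centroblast library 1 (adjusted p 0.0624), 2 (0.0665), 3 (0.0963) or 4 (0.0819), without mutant centrocyte library 1 (0.0658), 2 (0.122) or 3 (0.0559), and without mutant centrocyte libraries 3 and 4 together (0.0615), and it held with the GC and length offset (0.30, adjusted p 0.045) but not with that offset and the number as a block (0.29, adjusted p 0.0542). In controls Cbx8 had 12.3 to 15.8 CPM in centrocytes and 9.43 to 13.3 CPM in centroblasts, with overlap (0.30 ± 0.137, adjusted p 0.117).

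Ring1 and Bmi1 were the other members whose mutant centrocyte libraries lay entirely above the mutant centroblast libraries, but neither passed the test. Ring1 averaged 34.5 ± 3.9 CPM in mutant centrocytes and 27.3 ± 1.72 CPM in mutant centroblasts (SD, n = 4; 0.34 ± 0.142, adjusted p 0.12), and 31.1 ± 2.2 CPM in control centrocytes and 24.5 ± 5.49 CPM in control centroblasts (0.35 ± 0.142, adjusted p 0.078). Leaving out control centroblast library 1 brought the mutant difference under the threshold (0.34, adjusted p 0.0276), and leaving out control centroblast library 3 the control one (0.44, adjusted p 0.0406). Bmi1 averaged 23.5 ± 1.99 CPM in mutant centrocytes and 16.5 ± 3.55 CPM in mutant centroblasts (0.51 ± 0.251, adjusted p 0.184), and 16.9 ± 4.62 CPM in control centrocytes and 12.1 ± 5.37 CPM in control centroblasts (0.48 ± 0.252, adjusted p 0.169). With the GC and length offset Bmi1 was called higher in centrocytes in mutants (0.44, adjusted p 0.00985) and in controls (0.37, adjusted p 0.0183), and without control centroblast library 1 it was called in controls (0.81, adjusted p 0.0112).

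Rnf2, Pcgf1, Pcgf5, Pcgf6, Cbx2 and Cbx7 differed between zones by -0.11 to 0.11 on the log2 scale in mutants and by -0.23 to 0.13 in controls, with overlapping libraries in both and adjusted p values of 0.321 or more. With the offset, Cbx2 (-0.51, adjusted p 0.00167) and Rnf2 (-0.27, adjusted p 0.0288) were called lower in control centrocytes. Cell cycle genes moved with the zone: 7 of 12 fell in mutant and 9 of 12 in control centrocytes, among them Ccnb1 (-1.14 in mutants and -0.99 in controls), and 10 of 10 macrophage markers had a positive zone difference in mutants and 9 of 10 in controls. Naive B cell markers moved the same way: 4 of 7 rose in centrocytes in each genotype, with summed levels of 910 to 1110 CPM in mutant centrocytes against 310 to 450 CPM in mutant centroblasts, and 937 to 1140 CPM in control centrocytes against 335 to 368 CPM in control centroblasts. Among them was Cd38, the surface marker gated out in the sort (1.30, adjusted p 0.000539, in mutants and 1.07, adjusted p 0.00174, in controls). The part of any of these in the members' zone differences was not tested. Between genotypes, 5 of the 12 cell cycle genes fell in mutant centrocytes and 3 in mutant centroblasts, and none rose, and their part in the genotype differences was not tested either.

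**Figure D4:**
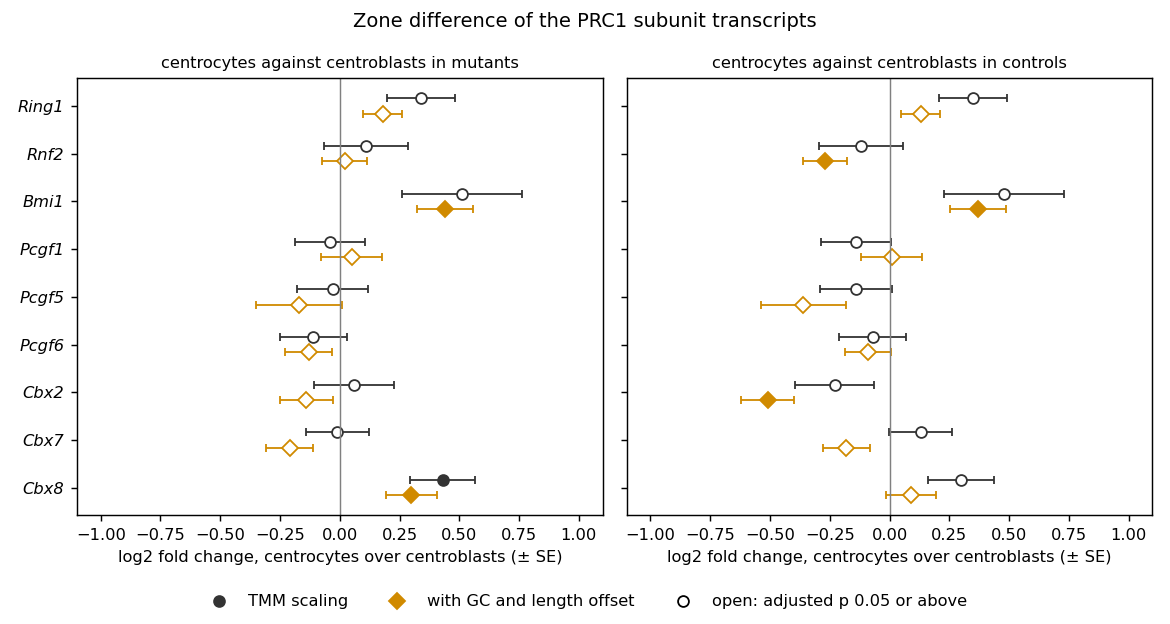
Log2 fold change of centrocytes over centroblasts (x axis, bars ± SE) for each member in mutants (left) and controls (right), with TMM scaling (circles) and with the GC and length offset (diamonds); filled symbols have an adjusted p under 0.05. Under TMM scaling Cbx8 in mutants (0.43) is the filled symbol, and Bmi1 lies to the right in both genotypes (0.51 and 0.48) with wide bars.

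The interaction asks whether the genotype difference was larger in centrocytes than in centroblasts. With TMM scaling no member had an unadjusted p under 0.05, and for Cbx8 the difference of differences was 0.13 ± 0.193 (SE, adjusted p 0.999). With the GC and length offset, Cbx2 (0.37, unadjusted p 0.0296) and Rnf2 (0.30, unadjusted p 0.0388) were under it in the edgeR test. Both had an adjusted p of 0.932. Over all genes edgeR called 0 (0.00%) and DESeq2 1, and 429 had an edgeR p under 0.05 before adjustment. With TMM scaling the values for the other members ran from -0.14 ± 0.186 for Cbx7 to 0.29 ± 0.235 for Cbx2. After adjustment, a difference between the zones in response to the mutant was not detectable in any member with these libraries.

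The remaining canonical PRC1 genes held a larger change than any of the 9 members. Of 7 tested genes of that list 2 fell in mutant centrocytes and 1 in mutant centroblasts, beside 9.15% and 6.40% of all tested genes. The median log2 fold change of the list was -0.36 in centrocytes and -0.29 in centroblasts. Scmh1, the mouse relative of Drosophila Sex comb on midleg and a PRC1-associated protein, had 4.43 ± 1.21 CPM in mutant and 20.4 ± 1.59 CPM in control centrocytes, and 4.65 ± 1.47 CPM in mutant and 21.1 ± 2.22 CPM in control centroblasts (SD, n = 4). The highest mutant library was at 5.4 CPM in centrocytes and 6.7 CPM in centroblasts, against lowest control libraries of 18.1 and 19.0 CPM. Scmh1 fell 4.6-fold in centrocytes (-2.20 ± 0.215 on the log2 scale, adjusted p 8.28e-06) and 4.55-fold in centroblasts (-2.19 ± 0.214, adjusted p 8.34e-06), and was called in all 28 other settings run in each. Phc1, a polyhomeotic subunit that can polymerise, averaged 20.7 ± 4.74 CPM in mutant and 30.1 ± 3.81 CPM in control centrocytes (-0.54 ± 0.16, adjusted p 0.0282), and this call was lost in 7 of 28 other settings. These were males alone (-0.55, adjusted p 0.0933), females alone (-0.55, 0.134), and the fits without mutant centrocyte library 3 (-0.39, 0.0669), mutant libraries 3 and 4 (-0.42, 0.13) or control centrocyte library 1 (-0.46, 0.0724), 2 (-0.55, 0.0593) or 3 (-0.56, 0.0522). Scml2 had 0 reads in every library and was not tested.

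**Figure D5:**
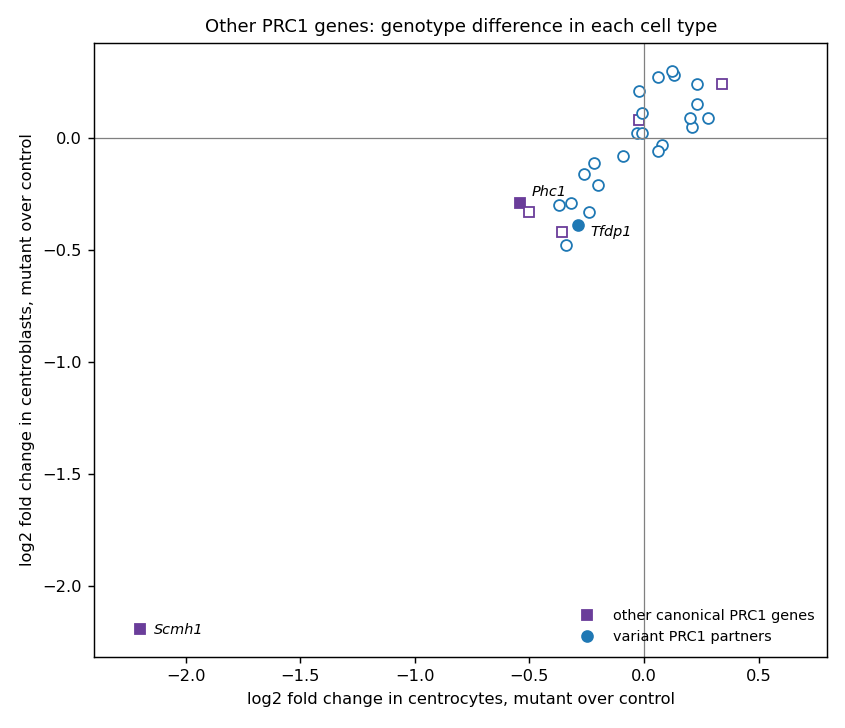
Log2 fold change of mutant over control in centrocytes (x axis) and centroblasts (y axis) for 6 other canonical PRC1 genes (squares) and 23 partners of variant PRC1 (circles); filled symbols passed the test in at least 1 of the cell types and are named. Scmh1 lies far from the rest at -2.20 and -2.19.

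Between genotypes, 7.37% of all tested genes were called higher and 9.15% lower in centrocytes, and 4.06% and 6.40% in centroblasts. Of 23 tested partners of the variant complexes 0 rose and 1 fell in mutant centrocytes and in mutant centroblasts, with medians of -0.01 and 0.02. The gene that fell was Tfdp1, whose product DP1 pairs with E2F6 of the PCGF6 complexes and with other E2F proteins, at 123 ± 6.06 CPM in mutant and 150 ± 6.63 CPM in control centrocytes (-0.29 ± 0.077, adjusted p 0.0169), and 155 ± 6.6 CPM in mutant and 204 ± 10.5 CPM in control centroblasts (-0.39 ± 0.077, adjusted p 0.00271). Tfdp1 also fell in centrocytes against centroblasts, by 0.34 in mutants (adjusted p 0.00562) and 0.44 in controls (adjusted p 0.000427). Bcor, the PCGF1 partner that joins BCL6, was higher in centrocytes than in centroblasts, at 195 ± 31.0 against 136 ± 19.7 CPM in mutants (0.52 ± 0.135, adjusted p 0.0133) and 223 ± 20.2 against 157 ± 22.1 CPM in controls (0.51 ± 0.135, adjusted p 0.00956). In the zone comparison 1 of 23 partners rose and 1 fell in mutants, and 2 rose and 2 fell in controls, where Fbrs (0.57, adjusted p 0.0154) and Csnk2b (-0.33, adjusted p 0.0466) were the others, Csnk2b in 10 of 29 other settings. Of all tested genes, 8.92% rose and 7.07% fell between zones in mutants, and 14.9% rose and 12.9% fell in controls. Auts2, the PCGF5 partner, had at most 13 reads in a library and was not tested.

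Of the 6 PRC2 core genes, 1 fell in mutant centrocytes and 2 fell in mutant centroblasts, beside 9.15% and 6.40% of all tested genes. Ezh2 itself averaged 189 ± 15.2 CPM in mutant and 245 ± 15.0 CPM in control centrocytes (-0.37 ± 0.119, adjusted p 0.0395), and 222 ± 32.0 CPM in mutant and 289 ± 42.0 CPM in control centroblasts (-0.38 ± 0.119, adjusted p 0.0486), a call that did not hold in 10 of 28 and 15 of 28 other settings. Rbbp7, a histone-binding subunit, fell in centroblasts (-0.37, adjusted p 0.0222). In centrocytes against centroblasts Rbbp4, its relative, fell by 0.38 in mutants and 0.70 in controls (adjusted p 0.0347 and 0.00031), and Ezh1 rose by 0.27 in controls (adjusted p 0.0452, called in 8 of 29 other settings). Of the 7 genes of the deubiquitinases that remove the H2A mark and their partners, 0 were called between genotypes by edgeR in either cell type. Over all tested genes, 16.5% were called in centrocytes and 10.5% in centroblasts. Asxl1, which activates the deubiquitinase BAP1, fell in centrocytes against centroblasts by 0.37 in mutants and 0.33 in controls (adjusted p 0.0137 and 0.0188), and Foxk1 rose by 0.50 in controls (adjusted p 0.0234).

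Of 11 textbook Polycomb-silenced genes 5 had enough reads to be tested, and 1 of them rose in mutant centroblasts and 0 in mutant centrocytes. Over all tested genes, 4.06% were called higher in centroblasts and 7.37% in centrocytes. Cdkn2a, the cell cycle inhibitor locus that Bmi1 is known to silence, had 2.24 to 3.26 CPM in mutant and 0.955 to 2.27 CPM in control centroblasts, which overlap slightly (0.91 ± 0.267, adjusted p 0.0352, called in 19 of 28 other settings). In centrocytes it had 1.59 to 2.47 CPM in mutants and 0.834 to 1.62 CPM in controls (0.70 ± 0.27, adjusted p 0.0866). Males alone gave a log2 difference of 1.49 (adjusted p 0.0135) and females alone 0.43 (0.546) in centroblasts.

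Cbx8 had the widest spread of the 9 members across the 4 group means (SD 0.444 on the log2 scale), ahead of Bmi1 (0.427) and Pcgf5 (0.346), while Cbx7 (0.0646) had the smallest. Among the 5 tested genes whose centred log2 CPM lay closest to that of Cbx8 over the 16 libraries were Tmem219, Bcas3 and Npepl1, with root mean square differences of 0.136, 0.152 and 0.154. Tmem219 averaged 26.6 CPM in mutant and 16 CPM in control centrocytes, and 20.4 CPM in mutant and 14.1 CPM in control centroblasts. Bcas3 averaged 21.4 CPM in mutant and 11.7 CPM in control centrocytes, and 15.7 CPM in mutant and 9.34 CPM in control centroblasts. The points share libraries, depth and base composition, and no test was made.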

How the data were processed

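Total RNA of sorted cells was sequenced from TruSeq libraries, per the labels' protocols. The deposited table holds raw read counts per gene symbol. The submitters' processing notes name Trim Galore, cutadapt, STAR 2.5.3a, Subread's featureCounts 1.4.5-p1 and the build mm10; strand, annotation and counting settings are not given in the sources used here, so overlapping and antisense genes are uncertain. Naive B cells named in the design text are not analysed here.

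The test was that of edgeR 4.0.16 under R 4.3.3 (filterByExpr, TMM, quasi-likelihood test, 1 mean per group over 16 libraries, 12 residual degrees of freedom, 2-sided, Benjamini-Hochberg over 15240 genes, threshold 0.05). CPM used TMM-adjusted totals. GENCODE M21 gave positions, lengths and GC content, for 96.7% of tested genes. Other settings were DESeq2 1.42.0, RLE factors, other filters, compared groups alone, replicate blocks, sex, a spline offset for GC and length, and libraries left out. Same-numbered mutant centrocyte and centroblast libraries deviated together (correlations 0.263 to 0.327). Of these pairs only number 1 was the best match in both directions, and the numbers also follow sex. The labels do not say that a number marks a shared mouse, so a pairing is not shown. Intervals from counting cover counting error only, since PCR reads are not independent molecules. The procedure was also run on simulated counts with set changes, drawn around the mean of each gene. These had no shifts of base composition, sex or cell mix between libraries, so they do not test the calls against such shifts. The named genes were the 9 members and, from each other list, up to 4 called genes per direction with the smallest p; some genes that this rule names are not reported here. Members and lists were chosen with earlier results of these data known. Replicates are biological replicates per the design text.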

Additional observations from a re-analysis of the deposited data

Results flagged for a closer look

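Each member's 4 libraries were examined in each of the 4 groups for a library far from the others by Dixon's test, 36 sets in all, of which chance alone marks about 1 in 20. One set was marked: Ring1 in control centrocytes, where library 1, at 27.8 CPM, lay below the other 3 (31.9 to 32.5 CPM) by 0.872 of the group's range, above the 95% critical value for 4 samples. Ring1 was not called between genotypes in centrocytes with this library (0.15, adjusted p 0.505) or in any of the 28 other settings. The cause was not tested.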

How the results depend on the processing

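Of the 5 called results of members, Cbx8 between genotypes was called in 27 of 28 other settings in each cell type, Pcgf5 in 25 of 28 in centroblasts and 21 of 28 in centrocytes, and Cbx8 between zones in mutants in 16 of 29. No called value changed sign, and 84 of 1278 values of members under other settings had a sign other than that of the value reported for an uncalled result, none over 0.30 in size.

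The count of members called higher in mutant centrocytes was 0 in females alone, 2 with the GC and length offset and 2 with that offset and the replicate block. The count called lower there was 0 in females alone, 0 with the offset, 0 with offset and block, and 0 to 1 with 1 library left out. In mutant centroblasts the count called higher was 0 in females alone, 2 with the offset, 2 with offset and block, and 1 to 2 with 1 library left out, and the count called lower was 0 in females alone and 0 with the offset. With offset and block, the member called lower there was Cbx2 (-0.30, adjusted p 0.0302), not Pcgf5. Between zones in mutants the count called higher was 0 with no filter on low counts, 3 in a fit of those groups only, 0 under the replicate block by number, 0 in males, 0 in females, 2 with the offset, 0 without mutant centrocyte libraries 3 and 4, and 0 to 2 with 1 library left out. Between zones in controls it was 2 with the block by genotype and number (Ring1 0.0326 and Cbx8 0.0487 in adjusted p), 1 in females, 1 with the offset, 1 with offset and block, and 0 to 1 with 1 library left out, and the count called lower was 2 with the offset and 2 with offset and block. Without the offset, the block changed no other call of a member than these and that of Cbx8 between zones in mutants. The offset corrects GC content and length together, and the cause of these changes was not tested.

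Over all genes, calls in centroblasts were 354 higher and 702 lower in a fit of those groups only, 1046 and 1158 in males, 184 and 322 in females, 1671 and 1259 with offset and block, and 381 to 854 and 697 to 1319 with 1 library left out, with fewest higher genes without control library 2 (381) and mutant library 4 (411). In centrocytes they were 303 and 592 in males, 2744 and 1727 with offset and block, 495 and 729 without mutant libraries 3 and 4, and 619 to 1423 and 971 to 1689 with 1 library left out, with fewest higher genes (619 to 733) without control library 2, 3 or 4 or mutant library 2. Between zones in mutants they were 792 and 561 in males, 619 and 441 in females, and 1781 and 2442 with offset and block. Between zones in controls they were 1205 and 802 in males and 2458 and 3656 with offset and block.

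Same-numbered control centrocytes and centroblasts correlated at -0.0059 to 0.452 in their deviations, and libraries of different genotype at -0.0886 to 0.344. There, as in the mutant zone comparison, the number is not shown to pair samples. With 4 libraries a group and SEs of 0.131 to 0.253 per member and comparison of groups, small differences of members were not detectable.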
